A study of Homo sapiens with 6 samples.

Results

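The 10 glycolytic enzymes described here carry glucose phosphate to lactate. They were chosen by symbol, in the order of the pathway, as GPI, PFKL, ALDOA, TPI1, GAPDH, PGK1, PGAM1, ENO1, PKM and LDHA. All 10 were found by Ensembl gene ID among the 58174 genes of each deposited table, and all 10 passed the filters on low values of both fits used below. The cells were LN-229, an established human glioblastoma line. RNA described as nuclear enriched was depleted of ribosomal RNA and sequenced in 3 libraries labelled control-NC (control below) and 3 labelled sh-JMJD1C, whose name is the usual form for a short hairpin RNA against JMJD1C, a JmjC-domain histone demethylase gene. The labels give no hairpin sequence, vector, clone or time after treatment. Separate cultures are not mentioned, and p-values here may therefore measure technical spread between libraries alone.

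Glycolysis splits glucose into pyruvate in the cytosol and yields ATP and NADH without oxygen. GPI and PFKL act on the hexose phosphates, ALDOA splits the hexose bisphosphate, and TPI1 interconverts the triose phosphates that result. GAPDH and PGK1 carry out the oxidation and the first ATP-forming step, PGAM1 and ENO1 lead to phosphoenolpyruvate, and PKM makes pyruvate and ATP. LDHA reduces pyruvate to lactate, which regenerates NAD. Gliomas, like many tumours, are known for making lactate even in the presence of oxygen. Most of these steps have isoenzymes encoded by other genes, and many of the 10 genes are textbook targets of hypoxia-inducible factor.

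Levels are given as scaled RPM, read counts brought to a common library size by median-ratio scaling, from whole reads recovered from the deposited FPKM, a unit that divides by gene length and library total. The libraries held 544442, 2004255 and 2960454 reads in control 1, 2 and 3 and 1676755, 1919675 and 1660561 reads in sh-JMJD1C 1, 2 and 3. JMJD1C itself stood at 183, 101 and 185 scaled RPM in the controls, against 46.7, 11.9 and 30.4 with sh-JMJD1C, lower in each, with adjusted p = 0.117 in limma on log2 FPKM and 0.0253 in limma-voom on reads. The log2 fold change of JMJD1C on reads was -2.49. It was -1.75 with the length trend removed (adjusted p = 0.0463, limma-voom) and -1.20 with the GC trend removed as well (0.0573). The libraries also differed in their kinds of RNA. MALAT1, a nuclear long non-coding RNA, took 1.73%, 1.25% and 2.40% of reads in the controls against 0.292%, 0.0915% and 0.185% in sh-JMJD1C 1, 2 and 3. The RN7SL genes, source of the signal recognition particle's RNA, took 0.378%, 0.590% and 1.77% against 1.18%, 15.7% and 18.5%. Mitochondrial genes took 7.04%, 8.70% and 2.93% against 12.6%, 1.33% and 1.70%, and the single non-coding gene ENSG00000281181 took 25.03% of reads in control 1. Of 10 glioma and mesenchymal markers, VIM, CD44 and EGFR were among 8 above 0, with S100B and OLIG2 at 0. The summed level of the 10 was 1809 to 3038 unscaled RPM in the controls, against 898 to 2267 with sh-JMJD1C. Of the 4 tested on reads, EGFR alone was lower without overlap, with scaled means of 1231 in the controls and 477 with sh-JMJD1C. EGFR was at -1.54 on the log2 scale and did not pass (limma-voom, adjusted p = 0.0585). The groups overlapped for VIM (0.15), CD44 (-0.03) and SOX9 (0.34). Of 12 markers of other cell types, PECAM1, ALB and MOG were at 0 and the summed level was 748 to 1454 against 3374 to 5422 unscaled RPM. The epithelial keratins KRT8 (log2 fold change 2.94, adjusted p = 0.0116, limma-voom) and KRT18 (1.87, 0.0303) rose on reads. With the length trend removed, KRT8 passed (adjusted p = 0.0132) and KRT18 did not (0.0606). KRT8 and KRT18 were the only 2 of the 12 with enough reads to be tested, and they made up most of the summed level. Their means were 402 and 549 scaled RPM in the controls, against 3335 and 1990 with sh-JMJD1C. The part of any of these differences in the results below was not tested.

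The lowest sh-JMJD1C library lay above the highest control for all 10 enzymes, on scaled FPKM and on scaled RPM, and their fold changes were above 0 under every scaling tried except for GAPDH after quantile normalization of the FPKM (-0.06 on the log2 scale). Without the scaling between libraries, the groups did not overlap in 7 of 10, both on FPKM as deposited (7.66% of all genes, higher) and on unscaled RPM (9.9%). In GPI, ALDOA and GAPDH sh-JMJD1C 3 then lay below control 2. The 10 genes together took 0.554%, 1.14% and 0.935% of reads in control 1, 2 and 3 and 2.10%, 2.66% and 2.12% in the sh-JMJD1C libraries. In the planned test, limma on log2(scaled FPKM + 0.5), 0 of 10 passed an adjusted p of 0.05, beside 35 of 17869 genes tested (0.196%). All 10 had an unadjusted p under 0.05 in the direction of higher, as did 10.1% of all genes tested, and the groups did not overlap in that direction in 12.6% of all genes. The adjusted p of the 10 ran from 0.0927 to 0.186. In limma-voom on recovered reads, 6 of 10 rose, where 3.75% of 11880 genes tested rose: PFKL, TPI1, PGK1, PGAM1, ENO1 and PKM. The groups did not overlap, with sh-JMJD1C higher, in 17.3% of the genes of that fit. The median log2 fold change of the 10 was 1.68 in the FPKM fit and 1.75 on reads, beside -0.13 and -0.08 over all genes tested. The count of 6 rested on the set of libraries: it became 0 without control 1 (0.332% of all genes called), control 3 (0.333%), sh-JMJD1C 2 (0.271%) or sh-JMJD1C 3 (0.863%). In these 4 cases 9, 9, 10 and 10 of the 10 still had an unadjusted p under 0.05. So did 2515 of 11738, 2086 of 10221, 1998 of 11454 and 2841 of 11473 genes tested, in either direction. The count became 7 without control 2 (10.6% of all genes called) and 9 without sh-JMJD1C 1 (20.1%). In the FPKM fit, the count became 4 without sh-JMJD1C 1 (3.87% of all genes called) and 6 among protein-coding genes only (9.1% called).

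**Figure D1:**
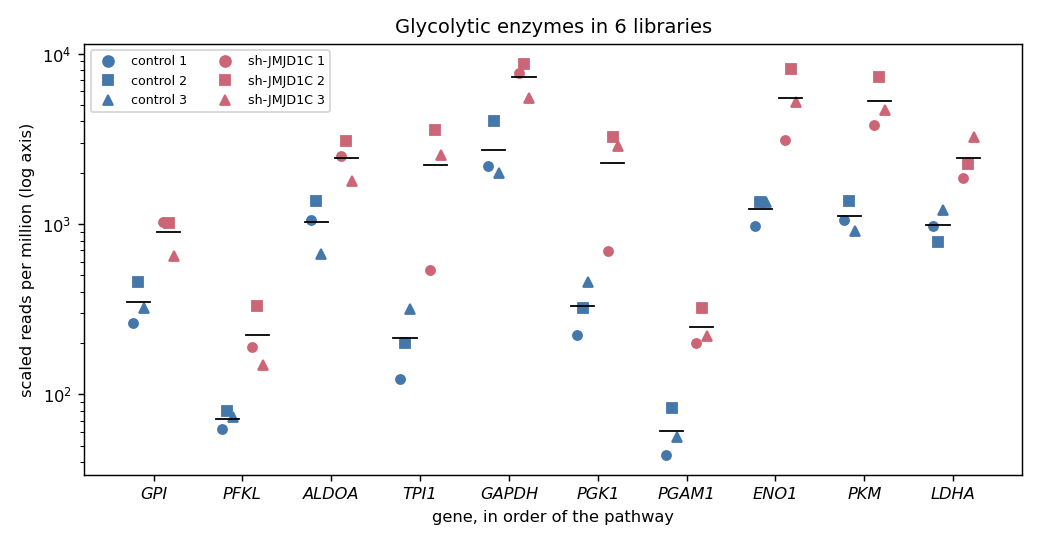
Scaled RPM (log axis) of the 10 glycolytic enzymes, in order of the pathway, in each of 3 control libraries (blue) and 3 sh-JMJD1C libraries (red), with a line at each group's mean. In all 10 genes the lowest red marker lies above the highest blue one, and the red circle of TPI1 and PGK1 (sh-JMJD1C 1) lies far below the other red markers.

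The hexose steps came with moderate differences. GPI, glucose phosphate isomerase (ENSG00000105220, chromosome 19, 34359480 to 34402413, plus strand, hg38), stood at 261, 457 and 321 scaled RPM in control 1, 2 and 3 and at 1030.3, 1008 and 649 in sh-JMJD1C 1, 2 and 3. Its lowest sh-JMJD1C library was number 3, above every control on this scale but below control 2 on unscaled RPM (514 against 518). The log2 fold change of GPI was 1.38 (SE 0.39, adjusted p = 0.0554, limma-voom on reads) and 1.29 (SE 0.39, adjusted p = 0.164) on FPKM. PFKL, the liver-type phosphofructokinase (ENSG00000141959, chromosome 21, 44300051 to 44327376, plus strand), stood at 62.4, 79.7 and 73.9 in the controls, against 191, 332 and 149 with sh-JMJD1C. Its controls lay close together, while sh-JMJD1C 2 was well above the other two. PFKL rose by 1.53 (SE 0.40, adjusted p = 0.0472) on reads and was at 1.33 (SE 0.37, adjusted p = 0.147) on FPKM. ALDOA, aldolase A (ENSG00000149925, chromosome 16, 30064164 to 30070457, plus strand), stood at 1061, 1357 and 667 in the controls, against 2518, 3067 and 1786 with sh-JMJD1C. The third library was the lowest of each group, and the gap between the groups was narrow, from 1357 to 1786. Its log2 fold change was 1.26 (SE 0.42, adjusted p = 0.0792) on reads and 1.21 (SE 0.42, adjusted p = 0.186) on FPKM.

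TPI1 and PGK1 had the highest fold changes of the 10 and the widest spread between sh-JMJD1C libraries. TPI1, triose phosphate isomerase (ENSG00000111669, chromosome 12, 6867119 to 6870948, plus strand), stood at 122, 201 and 317 scaled RPM in the controls, against 537, 3556 and 2538 with sh-JMJD1C. PGK1, phosphoglycerate kinase (ENSG00000102144, chromosome X, 77910739 to 78129296, plus strand), stood at 222, 321 and 454 in the controls, against 693, 3243 and 2882 with sh-JMJD1C. In both genes sh-JMJD1C 1 lay nearer to the controls than to the other two sh-JMJD1C libraries. On reads, TPI1 rose by 3.09 (SE 0.63, adjusted p = 0.0249) and PGK1 by 2.57 (SE 0.56, adjusted p = 0.0298) on the log2 scale. On FPKM their log2 fold changes were 3.00 (SE 0.77, adjusted p = 0.137) and 2.48 (SE 0.68, adjusted p = 0.146). The RN7SL share was likewise low in sh-JMJD1C 1 (1.18%) and high in sh-JMJD1C 2 and 3 (15.7% and 18.5%), and its part in these values was not tested. TPI1 and PGK1 together took 0.0274%, 0.0591% and 0.0983% of reads in the controls, against 0.119%, 0.477% and 0.429% with sh-JMJD1C.

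GAPDH, glyceraldehyde phosphate dehydrogenase (ENSG00000111640, chromosome 12, 6533927 to 6538374, plus strand), is often used as a reference gene. It stood at 2181, 4050.1 and 1979 scaled RPM in the controls, against 7684, 8749 and 5466 with sh-JMJD1C, so that control 2 came nearest to the sh-JMJD1C range. Its log2 fold change was 1.47 (SE 0.44, adjusted p = 0.0631) on reads and 1.41 (SE 0.47, adjusted p = 0.181) on FPKM, and -0.06 after quantile normalization of the FPKM. PGAM1, phosphoglycerate mutase (ENSG00000171314, chromosome 10, 97426160 to 97433441, plus strand), stood at 43.9, 82.8 and 56.1 in the controls, against 199, 323 and 219 with sh-JMJD1C. The control values rest on 19, 188 and 212 reads. PGAM1 rose by 1.97 (SE 0.39, adjusted p = 0.0225) on reads and was at 1.95 (SE 0.40, adjusted p = 0.106) on FPKM.

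ENO1, the ubiquitous enolase (ENSG00000074800, chromosome 1, 8861000 to 8879250, minus strand), stood at 977, 1346 and 1348 scaled RPM in the controls, against 3129.5, 8155 and 5218 with sh-JMJD1C. Its controls were close together and its sh-JMJD1C libraries were spread widely. ENO1 rose by 2.11 (SE 0.44, adjusted p = 0.0274) on reads and was at 2.02 (SE 0.50, adjusted p = 0.129) on FPKM. PKM, pyruvate kinase M (ENSG00000067225, chromosome 15, 72199029 to 72231822, minus strand), stood at 1061, 1371 and 911 in the controls, against 3837, 7250.2 and 4644 with sh-JMJD1C. It had the smallest adjusted p of the 10 in both fits: PKM rose by 2.20 (SE 0.41, adjusted p = 0.0200) on reads and was at 2.13 (SE 0.40, adjusted p = 0.0927) on FPKM. The table gives 1 value per gene, so the M1 and M2 splice forms of PKM were not told apart. LDHA, lactate dehydrogenase A (ENSG00000134333, chromosome 11, 18394388 to 18408425, plus strand), stood at 977, 779.8 and 1203 in the controls, against 1862, 2248 and 3248 with sh-JMJD1C. Unlike in the other 9 genes, its highest sh-JMJD1C library was number 3 rather than number 1 or 2. Its log2 fold change was 1.3 (SE 0.40, adjusted p = 0.0643) on reads and 1.23 (SE 0.40, adjusted p = 0.172) on FPKM.

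Levels of different genes were set beside each other only as scaled RPM per kilobase of the longest annotated transcript. In the controls the order was GAPDH at 1459.6 ± 609 (SD, n = 3), ENO1 at 480.3 ± 83.8, LDHA at 408 ± 87.7, ALDOA at 406 ± 137 and PKM at 369 ± 77.8. TPI1 at 121 ± 55.4, GPI at 79.8 ± 23.2, PGK1 at 68.0 ± 23.8, PGAM1 at 33.3 ± 10.9 and PFKL at 11.99 ± 1.47 followed. The ranges of ENO1, LDHA, ALDOA and PKM overlapped, as did those of TPI1, GPI and PGK1, and the other neighbours in this order did not overlap. After sh-JMJD1C, GAPDH (3893 ± 893) and ENO1 (2159 ± 991) remained the 2 highest, with overlapping ranges, and PGAM1 (135 ± 36.3) and PFKL (37.3 ± 15.96) the 2 lowest. PKM moved from rank 5 to rank 3 (1739 ± 592) and TPI1 from rank 6 to rank 4 (1254 ± 871), above LDHA (1015 ± 296) and ALDOA (970 ± 254), with overlapping ranges between neighbours in that order. PGK1 stood at 465 ± 282 and GPI at 206 ± 49.3, also overlapping.

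The fold changes of single members depended on the gene's length and base composition to different degrees. The longest annotated transcript was shorter than the median of genes tested (3540 bases) in 7 of 10 members, and its GC content was above the median (48.6%) in 8 of 10. With the trend of fold over length removed from each library, 6 of 10 rose (2.35% of all genes rose): GPI, PFKL, TPI1, PGK1, ENO1 and PKM. With the trend over GC removed as well, 7 rose (3.65% of all genes): GPI, PFKL, PGK1, PGAM1, ENO1, PKM and LDHA. PFKL, PGK1, ENO1 and PKM were past the threshold on reads in all 3 versions. PGK1, whose longest annotated transcript has the lowest GC content of the 10 (43.3%), went from 2.57 to 2.89 and 3.24 on the log2 scale. GAPDH went the other way, from 1.47 to 0.91 and 0.40, and ALDOA from 1.26 to 1.0 and 0.62. The fold changes of all 10 were above 0 in these 3 versions.

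**Figure D2:**
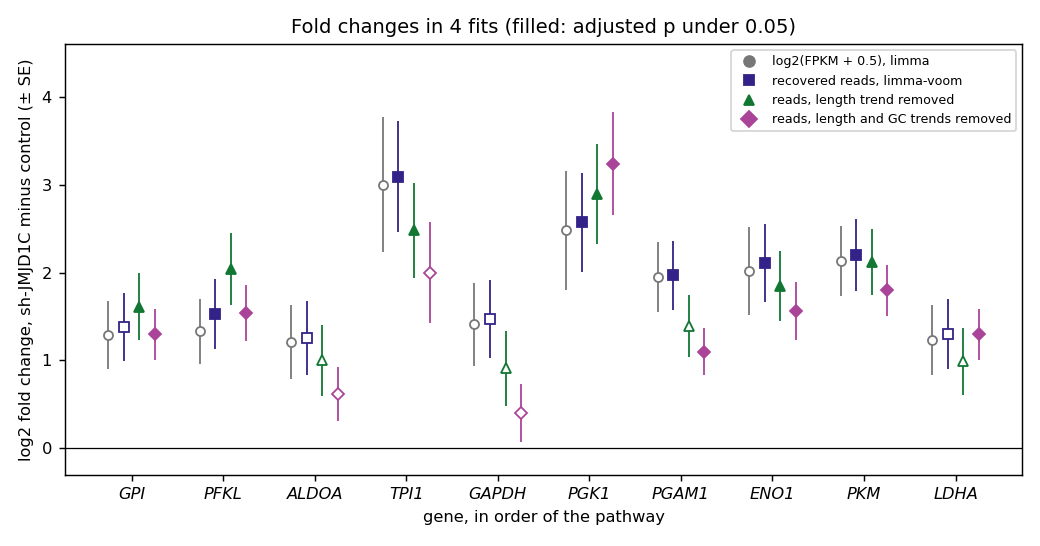
Log2 fold changes (sh-JMJD1C minus control, ± SE) of the 10 enzymes, in order of the pathway, in 4 fits; filled symbols have an adjusted p under 0.05. All 40 values lie above 0, none is filled in the FPKM fit, and the values of TPI1 and GAPDH differ most between fits; after quantile normalization of the FPKM, not drawn, GAPDH is at -0.06.

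Reads of some members may belong to other genes. The antisense gene ENSG00000269968, which overlaps GAPDH on the other strand, held 41.9% as many reads as GAPDH over the 6 libraries. This share was uneven. The antisense gene had 674, 5294 and 2119 reads in control 1, 2 and 3, beside 944, 9193 and 7476 for GAPDH. In sh-JMJD1C 1, 2 and 3 it had 5944, 3825 and 2718, beside 12493, 11779 and 7184. Strand use in the counting is not stated, so reads of the antisense gene cannot be told apart from those of GAPDH. GAPDH has 65 annotated processed copies by name, with 2.44% to 4.34% as many reads per library as the gene. The copies of TPI1 held 5.64% to 9.65% and those of PGAM1 1.61% to 15.8% as many reads as the gene. With these reads added to each member, the same number, 6 of 10, rose on reads, where 446 of 11871 genes tested rose. PGK1 as annotated spans ATP7A and PGAM4, and those genes held 2.78% and 0.389% as many reads.

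To ask how each member stood against other isoenzymes of its step, reads of both were compared within each library, which removes the scaling between libraries. The ratio of ENO1 to ENO2, the neuronal enolase, was 6.03, 5.84 and 4.93 in the controls, against 7.43, 7.41 and 7.48 with sh-JMJD1C on the log2 scale. The mean was 5.60 ± 0.59 in the controls and 7.44 ± 0.03 (SD, n = 3) with sh-JMJD1C, a difference of 1.84, and the groups did not overlap (two-sided exact permutation p = 0.10, the smallest that 3 against 3 allows, adjusted p = 0.20 over 6 pairs). ENO2 itself was low, at 27.1 ± 15.5 scaled RPM in the controls, against 31.4 ± 15.01 with sh-JMJD1C. The ratio of LDHA to LDHB, whose product favours the reverse reaction, was 1.59, 1.42 and 1.17 in the controls, against 1.77, 2.16 and 2.09 with sh-JMJD1C. That difference of 0.61 was again without overlap (exact p = 0.10, adjusted p = 0.20). PFKL against PFKP, the platelet-type enzyme, was at -1.60, -1.64 and -1.28 in the controls, against -0.61, -0.56 and -1.11 with sh-JMJD1C, a difference of 0.75 without overlap (exact p = 0.10, adjusted p = 0.20). PFKL thus had fewer reads than PFKP in all 6 libraries.

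In the other 3 pairs the groups overlapped. PFKL against PFKM, the muscle-type enzyme, differed by 0.49 (exact permutation p = 0.30, adjusted p = 0.45), ALDOA against ALDOC by -0.34 (exact p = 0.60, adjusted p = 0.60) and ENO1 against ENO3, the muscle enolase, by 0.19 (exact p = 0.60, adjusted p = 0.60). No pair could pass an adjusted p of 0.05 in this design. PGAM1 against PGAM2 and PKM against PKLR were not tested, since PGAM2 had 31 reads and PKLR 1 read over the 6 libraries.

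**Figure D3:**
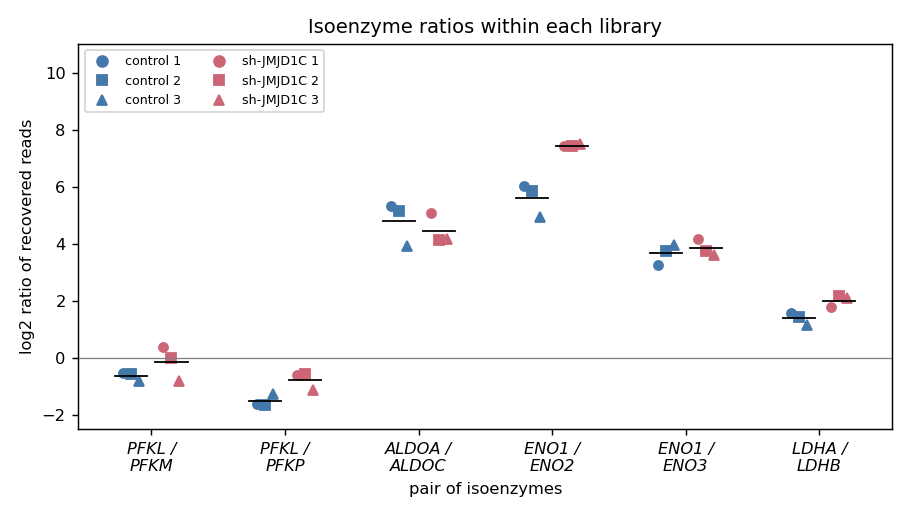
Log2 ratio of the recovered reads of an enzyme to those of another isoenzyme of its step, in each of 3 control (blue) and 3 sh-JMJD1C (red) libraries, with a line at each group's mean. The groups do not overlap for PFKL to PFKP, ENO1 to ENO2 and LDHA to LDHB, and overlap for the other 3 pairs.

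The isoenzymes outside the 10 were measured less well: 7 of 14 had at least 60 reads over the libraries. Of these, 1 rose and none fell on reads, ENO3, which stood at 102, 99.1 and 86.0 scaled RPM in the controls, against 172, 602 and 431 with sh-JMJD1C (log2 fold change 1.90, SE 0.46, adjusted p = 0.0398, limma-voom; 1.76 and 0.146 on FPKM). ENO3 did not pass with the length trend removed (1.20, adjusted p = 0.0798) or with the GC trend removed as well (0.73, adjusted p = 0.187). On scaled RPM its lowest sh-JMJD1C library was number 1, as for TPI1, PGK1, PGAM1, ENO1, PKM and LDHA. The median over the 7 was 0.80. ALDOC stood at 35.9 ± 9.50 in the controls, against 117 ± 52.6 with sh-JMJD1C, without overlap (adjusted p = 0.0546). PFKM stood at 113 ± 20.8 in the controls, against 247 ± 93.8 with sh-JMJD1C (adjusted p = 0.112), PFKP at 207 ± 36.6 and 367 ± 107 (adjusted p = 0.164) and LDHB at 383 ± 131 and 603 ± 137 (adjusted p = 0.232). In the FPKM fit 0 of 10 passed, with 4 higher and 2 lower at an unadjusted p under 0.05; the 2 lower were GAPDHS (-0.87) and PGAM2 (-1.74), both too low in reads for the other fit and named after their values were seen.

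Genes upstream and downstream of the 10 enzymes were read from the same fit on reads. Of the hexokinases and glucose entry genes, 0 of 6 passed in limma-voom, 2 had an unadjusted p under 0.05, both higher, and the median was -0.18. HK1, the widely expressed hexokinase, stood at 118, 113 and 119 scaled RPM in the controls, against 369.7, 261 and 216 with sh-JMJD1C (log2 fold change 1.24, adjusted p = 0.0590), without overlap. HK2, the inducible hexokinase, stood at 106, 109 and 152 against 103, 100.3 and 71.5 (-0.43, adjusted p = 0.432). SLC2A1, the main glucose transporter, stood at 118, 162 and 143 against 114, 148 and 67.0 (-0.44, adjusted p = 0.459), with overlapping groups. With the length trend removed, HK1 rose by 1.41 (adjusted p = 0.0463). Of the genes of lactate and pyruvate transport, 0 of 7 passed, 2 had an unadjusted p under 0.05, both lower (14.5% of all genes were lower at that threshold), and the median was -0.21. SLC16A3, the lactate exporter MCT4, stood at 147 ± 32.9 in the controls, against 233 ± 102 with sh-JMJD1C (0.59, adjusted p = 0.333).

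Regulators of fructose bisphosphate gave 0 of 4 past the threshold (1 lower at an unadjusted p under 0.05, median -0.32), and pyruvate dehydrogenase with its kinases and phosphatases 0 of 11 (2 higher and 3 lower unadjusted, median 0.02). The pentose phosphate branch gave 0 of 7 (4 higher unadjusted, median 0.83) and the tricarboxylic acid cycle 0 of 16 (9 higher unadjusted, median 0.94), all in limma-voom on reads, where 16.3% of all genes were higher at an unadjusted p under 0.05. In the FPKM fit 0 genes of any of these lists passed, and the unadjusted counts were 2 higher and 1 lower for glucose entry, 0 for transport and for the regulators, 2 higher for pyruvate dehydrogenase, 2 higher for the pentose branch and 6 higher for the cycle. Hypoxia factors and targets outside glycolysis had a median of -0.86 over 21 genes, with 17 below 0. On reads, 1 was higher and 6 were lower at an unadjusted p under 0.05, beside 16.3% and 14.5% of all genes. In the FPKM fit 0 of 22 passed, with 2 higher and 4 lower unadjusted. Of the 21 genes, DDIT4, a stress-induced inhibitor of mTOR signalling, rose from 144 ± 12.5 to 593 ± 326 scaled RPM (1.87, adjusted p = 0.0411, limma-voom). VEGFA, the vascular growth factor, fell from 171 ± 16.4 to 64.6 ± 17.9 (-1.44, adjusted p = 0.0463). Neither passed with the length trend removed (adjusted p = 0.0765 and 0.353), whereas ADM, which encodes adrenomedullin, fell by 1.84 (adjusted p = 0.0287) in that version and by 2.35 (0.00936) with the GC trend removed as well. With these trends removed, 2 further genes of the lists above passed beside HK1. They were TKT of the pentose branch (1.94, adjusted p = 0.0484 without the length trend) and PDK4, a pyruvate dehydrogenase kinase (2.31, adjusted p = 0.0227 without both trends). ADM, TKT and PDK4 were named after their values were seen. The members' median of 1.75 was thus above that of each of these lists, a difference that was not tested.

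**Figure D4:**
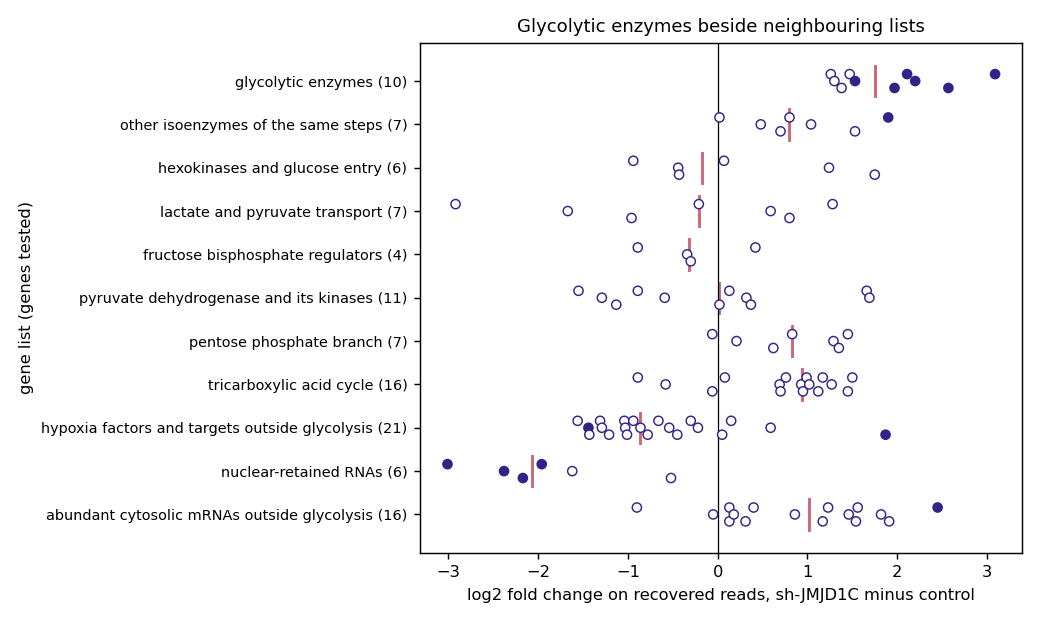
Log2 fold changes on recovered reads (sh-JMJD1C minus control) of the 10 glycolytic enzymes and of genes in neighbouring lists, each circle 1 gene, filled where adjusted p is under 0.05, with a bar at the list's median. The enzymes lie between 1.26 and 3.09, the hypoxia genes outside glycolysis mostly below 0, and the nuclear-retained RNAs between -3.01 and -0.52.

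Nuclear-retained RNAs and abundant cytosolic mRNAs were read beside the members because the RNA was described as nuclear enriched. Of 6 nuclear-retained RNAs tested, 4 fell on reads (1.82% of all genes fell): MALAT1 by 3.01, FTX by 2.38, TUG1 by 2.17 and NEAT1 by 1.96 on the log2 scale. With the length trend removed, MALAT1 alone of these passed (adjusted p = 0.0211). As a share of reads, the 7 RNAs of that list took 1.91%, 1.41% and 2.74% in the controls, against 0.346%, 0.128% and 0.228% with sh-JMJD1C. Of 16 abundant cytosolic mRNAs outside glycolysis, 1 rose, the tubulin gene TUBA1B (2.45, adjusted p = 0.0127), 9 had an unadjusted p under 0.05, all higher, and the median was 1.02. Under quantile normalization that median was 0.16 on reads and -0.13 on FPKM, where the members' medians were 1.33 and 1.0. The cytosolic mRNAs together took 2.38%, 4.16% and 2.79% of reads in the controls, against 3.94%, 4.38% and 3.62% with sh-JMJD1C. The ranges of this summed share overlap, while those of the 10 enzymes do not. By gene, on scaled RPM, the groups did not overlap in 7 of the 16 cytosolic mRNAs, all higher with sh-JMJD1C. The same held for 9 of 16 genes of the tricarboxylic acid cycle, beside 17.3% of all genes. Whether the libraries differ in how much cytosolic RNA they hold, and its part in the members' values, was not tested.

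**Figure D5:**
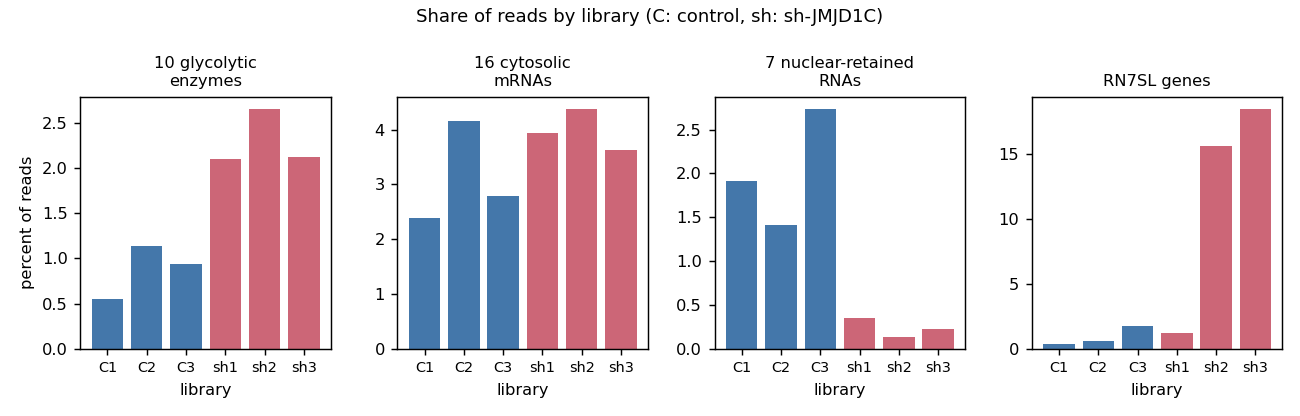
Percent of each library's reads on the 10 glycolytic enzymes, 16 abundant cytosolic mRNAs, 7 nuclear-retained RNAs and the RN7SL genes, in 3 control (blue) and 3 sh-JMJD1C (red) libraries. The enzymes lie at 0.554% to 1.14% in the controls, against 2.10% to 2.66% with sh-JMJD1C, and the RN7SL share is high in sh-JMJD1C 2 and 3 only.

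The genes with the profile over the 6 libraries most like the median of the 10 members were GSTM1, BCS1L, USP5, CD82 and NDUFB11, of 10101 protein-coding genes outside all lists. Likeness was the mean absolute difference of centred log2 levels over the 6 libraries, and it was 0.102 for GSTM1, 0.121 for BCS1L, 0.126 for USP5, 0.127 for CD82 and 0.132 for NDUFB11. Among the members themselves the same measure ran from 0.140 for PGAM1 and 0.15 for PKM to 0.633 for PGK1 and 0.855 for TPI1. USP5, which encodes a deubiquitinase, lies at 6852128 to 6866632 on chromosome 12, just before TPI1. It stood at 64.4 ± 13.4 scaled RPM in the controls, against 222 ± 82.0 with sh-JMJD1C.

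The 250 bases before the RefSeq start sites of the 10 genes (build GRCh38.p14) were searched for short motifs on both strands. The motifs were ACGTG, the core of the hypoxia response element, GCGTG, its other common form, and the E-box CACGTG. Any part of hypoxia-inducible factor in the members' values was not tested. CACGTG holds ACGTG on each strand and counts as 2 of its positions. The table matched all 10 members with 14 windows. ACGTG was in 8 of 14 windows, beside 18.5% of all 35116 windows of this length, GCGTG in 5 (32.2% of all), either in 11 (43.2%) and CACGTG in 3 (6.34%). Some members had more than 1 window. By gene, 6 of 10 members had ACGTG in a window and 8 had ACGTG or GCGTG. PGAM1 and PKM had none of the motifs. The GC content of the members' windows ran from 53.2% to 78.0%, beside a median of 58.0% over all windows. Only the windows of GPI and PGAM1 (54.8% each) and those of ALDOA at 53.2% and 57.6% lay below that median. The part of GC content in the number of matches was not tested. Windows of 1 gene can overlap, so they are not independent. A match describes the letters and does not show a bound site. The stretches below lie outside annotated exons. They belong to the 2 genes with the highest fold changes, to GAPDH, whose fold change went below 0 in 1 alternative, and to LDHA. All were picked after the matches were seen. By the coordinates given above, those of TPI1, PGK1 and GAPDH lie inside the gene as annotated, and that of LDHA lies before it. The other window of TPI1 held none of the motifs. Capitals mark ACGTG and GCGTG on either strand, and letters run 5′ to 3′ along the gene.
TPI1, chr12:6867855-6868099, plus strand: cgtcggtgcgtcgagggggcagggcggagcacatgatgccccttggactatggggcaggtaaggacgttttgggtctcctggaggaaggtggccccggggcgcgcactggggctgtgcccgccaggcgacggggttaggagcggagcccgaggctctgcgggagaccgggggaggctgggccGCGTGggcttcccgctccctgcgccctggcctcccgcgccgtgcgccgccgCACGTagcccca
PGK1, chrX:78103998-78104173, plus strand: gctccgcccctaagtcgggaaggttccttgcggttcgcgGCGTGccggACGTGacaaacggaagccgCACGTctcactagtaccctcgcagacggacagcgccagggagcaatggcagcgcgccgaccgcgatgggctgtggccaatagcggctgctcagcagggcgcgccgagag
GAPDH, chr12:6535142-6535263, plus strand: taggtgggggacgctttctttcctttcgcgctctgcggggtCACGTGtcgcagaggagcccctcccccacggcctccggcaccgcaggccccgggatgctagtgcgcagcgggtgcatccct
LDHA, chr11:18394313-18394387, plus strand: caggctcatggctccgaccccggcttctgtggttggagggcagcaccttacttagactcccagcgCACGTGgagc

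The stretch of PGK1 holds 2 positions of ACGTG and 1 of GCGTG, and that of TPI1 holds 1 of each. The stretches of GAPDH and LDHA each hold 1 CACGTG.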

How the data were processed

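The authors deposited 1 table of FPKM per library, each with 58174 Ensembl genes. Columns are headed by growing shares of the reads, per the file headers, and values here come from the last (the full library). The submitters' processing notes name Bowtie 0.12.2 and hg38 without a role. The counter, annotation and strand setting were not given in the sources used here.

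Low FPKM step by the value of 1 read, so whole reads were recovered per gene. For 27427 of 29280 detected genes (93.7%) the length divided by was the summed length of all GENCODE 29 transcripts; for 1853, among them GPI, ALDOA, PGK1 and ENO1, it was the smallest whole length making every column whole within 0.001 of a read. On simulated data 98.3% of 3000 genes were recovered exactly. Of recovered values below 1000 reads, 100.0% were whole, in part by that choice of length. The other columns served only to find lengths. A count of 0 allows up to 3 reads, 1.01 to 5.51 RPM by library; such limits cover counting error only.

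The planned test was limma 3.58.1 (R 4.3.3) with its trend option on log2(scaled FPKM + 0.5), over 17869 genes with a mean median-ratio scaled FPKM of at least 0.5, on the group alone, two-sided, with Benjamini-Hochberg adjustment at 0.05 over all genes tested. A fold change is then on the log2(value + 0.5) scale, which understates that of low genes. The second fit was limma-voom on recovered reads of 11880 genes with at least 60 reads, median-ratio scaled on genes averaging 20 reads or more. Versions of it removed a lowess trend (span 0.3) over transcript length, and over GC as well. On simulated counts with 50 genes changed per fold, the FPKM fit called 0 at 2-fold, 25 at 4-fold and 44 at 8-fold. For limma-voom these counts were 1, 27 and 40.

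The members and lists were chosen with earlier results of these data known, so their directions are not independent evidence. Genes named were JMJD1C, the members, list genes that passed either fit, 7 defining genes of the neighbouring steps, and the 5 outside the lists with the most similar profile. ALDOC and ENO2 are named as isoenzymes of tested pairs. Gene names came from the gene name table and coordinates, counted from 1, from GENCODE 29; promoter sequences came from RefSeq (GRCh38.p14).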

Additional observations from a re-analysis of the deposited data

How the results depend on the processing

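The 10 enzymes kept a fold change above 0 in every alternative run, in both fits, except GAPDH in the FPKM fit with quantile normalization (-0.06). Counts moved more. In the FPKM fit, 6 enzymes passed among protein-coding genes only (9.1% of genes tested called) and 6 when limma-voom on reads replaced limma (5.57%). When 1 library was left out of the FPKM fit, 0 to 4 passed (0% to 3.87% of all genes called). On reads, 5 passed with library totals (10.1% of all genes called), 4 with quantile normalization (8.57%) and 10 with the replicate block (35.9%). When 1 library was left out on reads, 0 to 9 passed (0.271% to 20.1% of all genes called). Over all genes, limma on FPKM called 83 with pseudocount 0.1, 0 with pseudocount 1 (3566 at an unadjusted p under 0.05), 0 without a filter (3821), 2 with a mean of at least 2, 79 on FPKM as deposited, 2 with quantile normalization, 915 among protein-coding genes, 119 with array weights, 0 without both libraries numbered 1 (4213), 662 by limma-voom and 0 to 695 with 1 library left out. On reads, 1195 genes were called with scaling by library totals, 1018 with quantile normalization, 407 with the length trend removed and 31 to 2305 with 1 library left out. Of those called, 446 of 662 were higher with median-ratio scaling, 311 of 1195 with library totals and 532 of 1018 with quantile normalization; in the FPKM fit 11 of 35 were higher, 527 of 915 among protein-coding genes. The median of all genes was -0.13 in the FPKM fit, -0.38 on FPKM as deposited and -0.01 with quantile normalization, and on reads -0.08, -0.52 with library totals and -0.06 with quantile normalization. Relative to it, the members' median was 1.80, 1.75 and 1.01 on FPKM and 1.84, 1.89 and 1.40 on reads. With the replicate number as a block, limma on FPKM called 0 genes (4377 unadjusted) and limma-voom 4263. The numbers are not taken to pair the libraries: deviations of libraries with the same number correlated at 0.013, 0.142 and 0.228 on FPKM and 0.023, 0.375 and 0.480 on reads, and sh-JMJD1C 1 correlated best with control 2. Isoenzyme ratios moved by less than the spread between libraries under every alternative run, though ENO1 to ENO3 was at -0.02 without control 1. A negative binomial count test on the recovered reads was not run. Depth limits PGAM1 and PFKL most, with 19 and 27 reads in control 1.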
